A study of Rattus norvegicus with 36 samples.

Results

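HBCD, a brominated flame retardant, was compared here between the 2 highest doses given to rats, with 6 liver arrays at 641 mg/kg set against 6 at 64.1 mg/kg. These 12 of the 36 arrays of the series were chosen by the dose in their sample labels. The comparison itself was chosen with earlier results of these data known. All 12 came from male rats of the Harlan Sprague Dawley stock, which were 7 weeks old when dosing began and received HBCD in corn oil by gavage, at 5 ml/kg, on 5 consecutive days. Tissue of the left lobe of the liver was collected 1 day after the last dose. The other groups, of 6 arrays each, received 6.41, 0.641 or 0.06 mg/kg HBCD or corn oil alone, and they enter below for the spread between arrays and as values set beside the comparison. Replicates are numbered 1 to 6 in the labels, which do not say whether each array had a rat of its own, so the p-values reflect only how far these samples scatter, and that scatter may be technical.

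A lipophilic foreign compound that reaches the liver is sensed there by nuclear receptors, mainly CAR and PXR, which switch on cytochrome P450 enzymes of the Cyp2b and Cyp3a families, conjugating enzymes and transporters. Oxidants and electrophiles act through another regulator, NRF2, which binds the antioxidant response element and raises the genes of glutathione synthesis, of glutathione conjugation and of quinone and aldehyde reduction. Conjugates then leave the hepatocyte through ABC exporters, towards bile or blood. CAR activators are also known to stimulate hepatocyte division in rodents.

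Levels are given as log2 expression values per probe set, in which a difference of 1 is a 2-fold change, and as the lowest, the median and the highest of the 6 arrays of a group. The 31042 probe sets tested covered 14217 gene symbols, each gene being represented by its probe set with the highest mean. Arrays of the same dose correlated at 0.9937 to 0.9958 at 641 mg/kg and at 0.9935 to 0.9959 at 64.1 mg/kg. The tissue label was checked with 12 hepatocyte markers, whose average ran between 13.54 and 13.62 at 641 mg/kg and between 13.61 and 13.64 at 64.1 mg/kg, close to the top of the scale at 14.59. The average of 11 macrophage markers (from Cd163 and Clec4f to the C1q genes) ran between 8.13 and 8.56 at 641 mg/kg, between 7.55 and 8.46 at 64.1 mg/kg and between 8.36 and 8.71 on vehicle, with replicates 2, 3 and 4 at 64.1 mg/kg below all other arrays of these groups. Because bulk liver was measured, fewer cells of a type and less RNA per cell cannot be told apart. The difference between 3-prime and 5-prime probe sets, a measure of RNA degradation, averaged -0.02 ± 0.03 at 641 mg/kg and -0.0039 ± 0.07 at 64.1 mg/kg for Gapdh and 1.14 ± 0.06 and 1.19 ± 0.12 for actin (SD, n = 6 each; adjusted p = 0.558 for both, exact permutation test over 924 splits, two-sided).

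The genes called higher at 641 than at 64.1 mg/kg were led in size by the conjugate exporter Abcc3, the glutathione transferase Gsta3 and the carboxylesterase Ces2c, and the fewer genes called lower were led by the taurine transporter Slc6a6. By limma, at an adjusted p under 0.05, 59 probe sets were higher at 641 mg/kg, which is 0.190% of all tested, and 16 were lower, which is 0.0515%. Counted as genes with 1 representative probe set, 42 were higher (0.295% of 14217) and 12 were lower (0.0844%). Most of these changes were small: 17 of the higher and 3 of the lower probe sets reached 1.5-fold, and 4 and 2 reached 2-fold. In 44 of the higher and 12 of the lower probe sets, the 6 arrays at 641 mg/kg did not overlap with the 6 at 64.1 mg/kg, a separation seen in 0.412% of all probe sets upward and 0.287% downward. The median difference over all probe sets was -0.01.

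These counts depend on which arrays are in the fit. With the spread taken from the 12 arrays alone, free of the vehicle and lower doses, 30 probe sets were higher and 5 lower, of which 25 and 4 were also called with all 36 arrays. Without the 3 arrays at 64.1 mg/kg of lowest macrophage markers, 20 were higher and 5 lower, of which 20 and 4 were also called with all arrays. Calls are harder to reach with fewer arrays at 64.1 mg/kg, and no other 3 arrays were left out together. Calls lost in this way, here and below, can therefore not be tied to the macrophage markers. Leaving out single arrays gave between 27 and 71 higher and between 5 and 24 lower probe sets. The higher count moved by over 1.5 times without 641 mg/kg replicate 2 (27) or 5 (34) and without 64.1 mg/kg replicate 3 (34) or 6 (32). The lower count did so without 641 mg/kg replicate 1 (9), 2 (5), 3 (10) or 5 (6), and without 64.1 mg/kg replicate 1 (8), 2 (8), 3 (9) or 6 (7). Of 21 alternatives at the level of probe sets, every one that tested them called 13 higher and 2 lower probe sets, namely those of Abcc3, Gsta3, Ces2c, Cryl1, Pir, Gsr, Aox1, Ugt2a1, Dip2a and Atp5if1, both of Abcb1a, both of Slc6a6, and 1 with no gene symbol. No called probe set changed sign under any of them. Calls that ended without the 3 arrays of lowest macrophage markers included Cyp3a23-3a1 (adjusted p = 0.0528), Akr7a3, Aldh1a1 and Gclm (each 0.0668), Gclc (0.075) and Cyp1a2 (0.154), and those that ended with the 12 arrays alone included Gclc (0.053), Gsta1 (0.113), Gulo (0.124) and Gsta4 (0.0911).

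**Figure D1:**
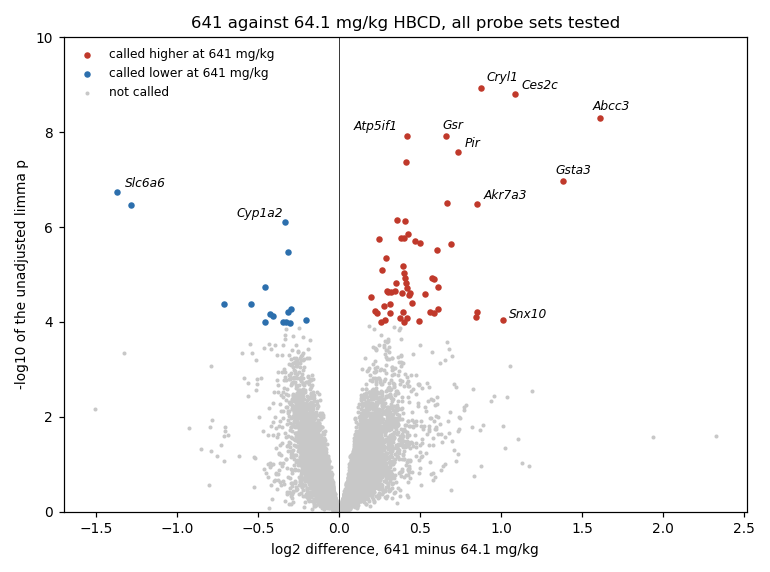
Each of the 31042 probe sets is placed by its log2 difference, 641 minus 64.1 mg/kg (horizontal), and by -log10 of its unadjusted limma p (vertical). The 59 probe sets called higher (red) lie to the right, led in size by Abcc3 and Gsta3, and the 16 called lower (blue) lie to the left, led by both probe sets of Slc6a6.

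Abcc3 showed the largest difference among the called genes. It encodes MRP3, an exporter that moves glucuronide and other conjugates out of the hepatocyte towards the blood. Its level was 7.03, 7.55 and 8.44 at 641 mg/kg, against 5.59, 5.94 and 6.67 at 64.1 mg/kg. All 6 arrays at 641 mg/kg lay above all 6 at 64.1 mg/kg. The difference was 3.06-fold (95% CI 2.28 to 4.11; adjusted p = 5.09e-05). The vehicle median was 5.19, and the 64.1 mg/kg group lay between it and the 641 mg/kg group.

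Gsta3, a glutathione transferase of the alpha class, followed in size. Its level was 9.46, 9.98 and 10.36 at 641 mg/kg, against 7.80, 8.55 and 9.07 at 64.1 mg/kg, again with no overlap. The difference was 2.61-fold (1.95 to 3.50; adjusted p = 0.00041). Ces2c, a carboxylesterase that cleaves ester bonds in drugs and lipids, reached 8.67, 9.04 and 9.27 at 641 mg/kg, against 7.60, 7.92 and 8.28 at 64.1 mg/kg. That was 2.13-fold higher (1.76 to 2.57; adjusted p = 2.40e-05), and the groups were again apart. Cryl1, lambda-crystallin, a dehydrogenase of the glucuronate pathway, stood at 8.77, 8.95 and 9.41 at 641 mg/kg, against 7.88, 8.11 and 8.37 at 64.1 mg/kg. Its 1.84-fold difference (1.58 to 2.14) had the smallest p of all probe sets, and its adjusted p was the same as for Ces2c. All of these calls held without each of the 12 arrays in turn, with adjusted p up to 0.00328 for Gsta3 and 0.000216 for Ces2c, both without 641 mg/kg replicate 2.

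Among the 12 genes called higher by 1.5-fold or more, 9 had a promoter in the RefSeq table used here (build GRCr8, 300 bases around a gene start), and Gsta3 had 2 starts. The promoters of 3 of these genes are printed because they hold a motif of the regulators whose target lists are described next, or of the cell cycle. The core of the antioxidant response element was searched as TGACNNNGC, the E-box as CACGTG and an E2F site as TTTGGCGC, on both strands. The first was found in 1 of the Gsta3 starts and in Pir, the third in Mcm6, and the E-box in none of these promoters. Of all 33469 promoters in the table, 12.1%, 6.42% and 0.493% hold the antioxidant response core, the E-box and the E2F site. The Gsta3 promoter lies on the plus strand at chr9:31154739-31155038, that of Pir on the minus strand at chrX:33851000-33851299 and that of Mcm6 on the minus strand at chr13:42404303-42404602. Capitals mark the matches, of which Pir has 2, both on the opposite strand, and none overlap.
Gsta3: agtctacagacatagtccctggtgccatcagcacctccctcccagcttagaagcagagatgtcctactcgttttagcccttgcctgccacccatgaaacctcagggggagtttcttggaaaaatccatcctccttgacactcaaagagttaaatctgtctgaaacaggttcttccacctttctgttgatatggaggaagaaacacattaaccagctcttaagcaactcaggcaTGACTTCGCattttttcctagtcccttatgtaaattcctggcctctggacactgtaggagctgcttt
Pir: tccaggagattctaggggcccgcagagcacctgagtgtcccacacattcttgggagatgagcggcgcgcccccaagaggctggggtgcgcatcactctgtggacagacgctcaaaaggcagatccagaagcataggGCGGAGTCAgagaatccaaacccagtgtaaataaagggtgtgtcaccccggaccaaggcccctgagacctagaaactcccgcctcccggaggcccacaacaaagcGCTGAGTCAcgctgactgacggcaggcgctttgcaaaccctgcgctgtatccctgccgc
Mcm6: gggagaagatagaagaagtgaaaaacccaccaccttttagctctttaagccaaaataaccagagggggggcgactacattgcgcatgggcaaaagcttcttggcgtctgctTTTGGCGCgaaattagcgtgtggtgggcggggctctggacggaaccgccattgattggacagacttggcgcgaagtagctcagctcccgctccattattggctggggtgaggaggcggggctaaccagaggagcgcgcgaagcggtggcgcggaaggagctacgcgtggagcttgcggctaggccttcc
These letters describe the sequence, and no measurement here bears on binding at them.

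**Figure D2:**
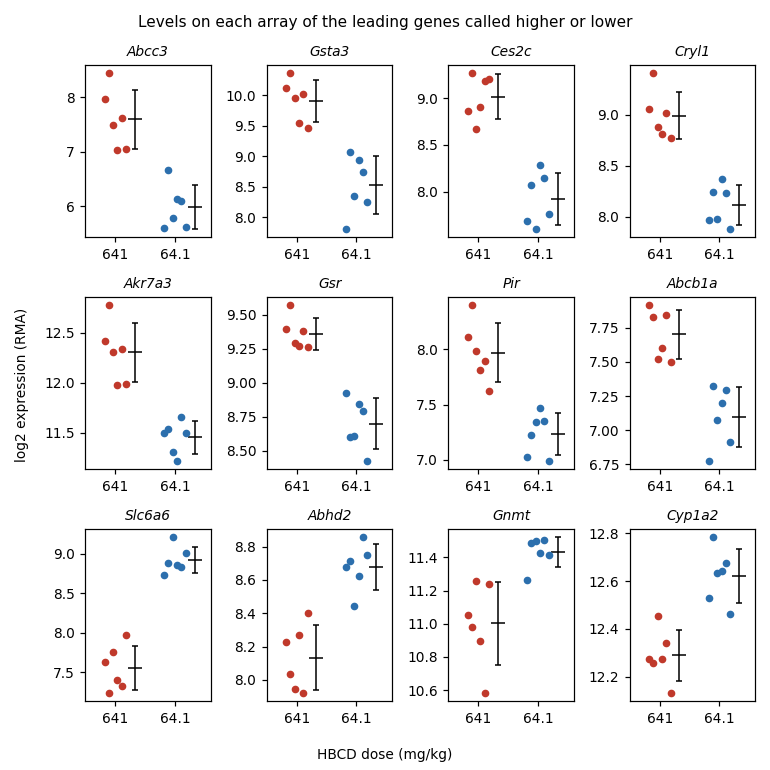
Log2 levels of 12 genes on each of the 6 arrays at 641 mg/kg (red, left) and 64.1 mg/kg (blue, right), with the mean and SD of each group. In all 12 panels the groups do not overlap, with 8 genes higher at 641 mg/kg and 4 lower (Slc6a6, Abhd2, Gnmt and Cyp1a2). The genes shown were picked from those called. Snx10, Cxcl9 and Zdhhc2, called with larger differences than Abcb1a but with overlapping groups, are not shown. Plekhb1, with a larger fall than Gnmt, and Sat1, with a larger fall than Cyp1a2, are not shown either, although their groups were apart.

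Of 17 measured targets of CAR and PXR, 8 were called higher and none lower, against 0.295% of all genes called higher. This list and those below were chosen with earlier results of these data known, so such shares are set side by side only. The probe set named for both Cyp2b2 and Cyp2b1, described below, is not counted in the list. All 17 had a difference above 0, with a median of 0.35, against -0.0041 over all genes. The count was 4 without 641 mg/kg replicate 2, and 3 without 64.1 mg/kg replicates 2, 3 and 4, which left Abcc3, Ces2c and Abcb1a. Besides Abcc3 and Ces2c, the called members were Aldh1a1, Abcb1a, Slco1a4, Cyp3a18, Cyp3a23-3a1 and Ephx1. The remaining members, among them Cyp3a9 (0.55), Por (0.35), Ugt2b1 (0.33), Alas1 (0.11), Abcc2 (0.10) and Cyp2c7 (0.02), did not pass the test.

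Cyp3a23-3a1, a P450 that hydroxylates steroids and many drugs, stood at 13.62, 13.67 and 13.77 at 641 mg/kg, against 13.17, 13.25 and 13.37 at 64.1 mg/kg. The groups were apart, and the difference was 1.34-fold (1.21 to 1.49; adjusted p = 0.0027). Its relative Cyp3a18 stood at 13.16, 13.24 and 13.32 at 641 mg/kg, against 12.63, 12.78 and 12.95 at 64.1 mg/kg. It was 1.36-fold higher (1.19 to 1.54; adjusted p = 0.0184), a call lost without any of 4 arrays (641 mg/kg replicates 2 and 5 and 64.1 mg/kg replicates 1 and 6; adjusted p up to 0.0659). A single probe set named for both Cyp2b2 and Cyp2b1, the classic CAR targets, stood at 12.27, 12.39 and 12.49 at 641 mg/kg, against 11.57, 11.79 and 11.92 at 64.1 mg/kg. Although the groups did not overlap and the difference was 1.53-fold (1.11 to 2.10), the adjusted p was 0.38 with all 36 arrays, and 0.00162 with the 12 arrays alone. The vehicle arrays of this probe set ran from 9.66 to 10.84, with an SD of 0.47. At 6.41, 0.641 and 0.06 mg/kg the SD was 0.51, 0.50 and 0.54, against 0.09 at 641 and 0.13 at 64.1 mg/kg. The vehicle and lower dose arrays enter the spread of the first fit but not of the second.

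Aldh1a1, which oxidises retinal and other aldehydes, stood at 12.25, 12.55 and 12.73 at 641 mg/kg, against 11.73, 11.94 and 12.09 at 64.1 mg/kg. It was 1.49-fold higher (1.27 to 1.74; adjusted p = 0.0124), a call lost without 641 mg/kg replicate 2 (adjusted p = 0.0628). Ephx1, the microsomal epoxide hydrolase, was 1.28-fold higher (adjusted p = 0.0143), and lost its call without 641 mg/kg replicate 2 or 64.1 mg/kg replicate 3 (adjusted p up to 0.064). Of 27 aldehyde dehydrogenases and aldo-keto reductases, 4 were called higher (Aldh1a1, Akr7a3, Cryl1 and Akr1d1) and none lower. The list median was 0.06, and 0.295% of all genes were called higher. The list count of 4 was 2 without 641 mg/kg replicate 2 and 1 without 64.1 mg/kg replicates 2, 3 and 4. Aox1, aldehyde oxidase, belonged to no list and was named after its values were seen. It stood at 11.32, 11.43 and 11.48 at 641 mg/kg, against 10.86, 10.99 and 11.20 at 64.1 mg/kg, without overlap (1.33-fold; adjusted p = 0.000189).

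Transporters moved in both directions. Of 13 ABC exporters, 2 were called higher and none lower, beside 0.295% of all genes called higher, and their median difference was 0.07. Abcb1a, one of the rodent P-glycoproteins, which pump lipophilic compounds out of cells, stood at 7.50, 7.71 and 7.92 at 641 mg/kg, against 6.77, 7.14 and 7.32 at 64.1 mg/kg. The difference was 1.52-fold (1.31 to 1.77; adjusted p = 0.00407), and the second Abcb1a probe set gave 1.62-fold (adjusted p = 0.00317). A probe set shared by Abcb1a and Abcb1b gave 1.53-fold (adjusted p = 0.0163), and does not separate these close relatives. Abcc2, the exporter of conjugates into bile, stood at 9.88, 10.24 and 10.55 at 641 mg/kg, against 9.95, 10.16 and 10.36 at 64.1 mg/kg, and did not pass the test (1.07-fold, 0.938 to 1.22; adjusted p = 0.80). Among 12 uptake transporters, 1 was called higher and 1 lower, beside 0.295% and 0.0844% of all genes. Slco1a4, an organic anion transporter that also carries thyroid hormone, was 1.37-fold higher (adjusted p = 0.0262), at 12.54, 12.65 and 12.67 at 641 mg/kg, against 12.04, 12.21 and 12.26 at 64.1 mg/kg. Its second probe set gave 1.5-fold (adjusted p = 0.0127) and kept its call without each array in turn, whereas the first lost it without any of 7 arrays (adjusted p up to 0.0781).

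Of 22 measured NRF2 targets, 9 were called higher and none lower, beside 0.295% of all genes called higher. This count was 4 without 641 mg/kg replicate 2 and 3 with the 12 arrays alone. Without 64.1 mg/kg replicates 2, 3 and 4 it was 1, with Gsr as the called member. All 22 differences were above 0, and their median was 0.29. The list shares Ephx1 with the CAR and PXR targets. Members that did not pass the test included Hmox1 (0.24), Txnrd1 (0.29), Gss (0.08) and Slc7a11 (0.09), which encode heme oxygenase, thioredoxin reductase, glutathione synthetase and the cystine carrier.

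Gsr, glutathione reductase, which returns oxidised glutathione to its reduced form, stood at 9.26, 9.34 and 9.57 at 641 mg/kg, against 8.42, 8.70 and 8.93 at 64.1 mg/kg. The groups were apart, with a 1.58-fold difference (1.39 to 1.79; adjusted p = 7.62e-05). Akr7a3, an aldo-keto reductase that reduces aflatoxin dialdehyde, stood at 11.98, 12.32 and 12.78 at 641 mg/kg, against 11.21, 11.50 and 11.66 at 64.1 mg/kg. It was 1.80-fold higher (1.49 to 2.18; adjusted p = 0.000882). Pir, pirin, an iron-binding nuclear protein known as an NRF2 target in human cells, was on no list here. Its level was 7.62, 7.94 and 8.40 at 641 mg/kg, against 6.99, 7.28 and 7.47 at 64.1 mg/kg, 1.67-fold higher (1.44 to 1.93; adjusted p = 0.000136).

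Both subunits of glutamate-cysteine ligase, the first enzyme of glutathione synthesis, were called higher. The modifier subunit Gclm stood at 10.87, 11.01 and 11.24 at 641 mg/kg, against 10.41, 10.66 and 10.85 at 64.1 mg/kg, 1.33-fold higher (1.19 to 1.5; adjusted p = 0.0143). The catalytic subunit Gclc stood at 10.15, 10.43 and 10.50 at 641 mg/kg, against 9.89, 10.01 and 10.16 at 64.1 mg/kg, 1.31-fold higher (1.19 to 1.44; adjusted p = 0.00294). Only for Gclc did the ranges of these subunits touch, through the lowest array at 641 mg/kg. The second Gclc probe set did not pass the test (0.39; adjusted p = 0.138), and Gclm lost its call without 641 mg/kg replicate 2 or 5 or 64.1 mg/kg replicate 1 (adjusted p up to 0.064).

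The other called NRF2 targets differed less. Srxn1, sulfiredoxin, was 1.32-fold higher (adjusted p = 0.0104) by 1 of its 3 probe sets and lost the call without 641 mg/kg replicate 2 (adjusted p = 0.0587). Blvrb, biliverdin reductase B, was 1.22-fold higher (adjusted p = 0.00565), Ugdh, which makes UDP-glucuronate, 1.22-fold (adjusted p = 0.0425), and Txn1, thioredoxin, 1.15-fold (adjusted p = 0.0206). Ugdh kept its call without only 3 of the 12 arrays and Txn1 without 7 of them. Nqo1, the quinone reductase and best known NRF2 target, stood at 7.99, 8.33 and 10.03 at 641 mg/kg, against 7.11, 7.62 and 7.73 at 64.1 mg/kg. The groups did not overlap, yet its 2.06-fold difference (1.28 to 3.30) did not pass the test (adjusted p = 0.279). Vehicle arrays of Nqo1 ran from 6.86 to 9.37, so its spread was wide at more than 1 dose.

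Among 3 families of conjugating enzymes, 2 held genes called higher. Of 20 glutathione transferases, 5 were called higher and none lower, beside 0.295% of all genes called higher, with a list median of 0.20. The count was 2 with the 12 arrays alone, and also without 64.1 mg/kg replicates 2, 3 and 4 together. Single arrays left it at 2 (without 641 mg/kg replicate 2 or 3 or 64.1 mg/kg replicate 3) or at 3 (without 641 mg/kg replicate 5 or 64.1 mg/kg replicate 1, 5 or 6). Beside Gsta3 these were Gsta1 at 1.19-fold higher (adjusted p = 0.00294), Gsta4 at 1.25-fold (adjusted p = 0.0184), Gstm1 at 1.20-fold (adjusted p = 0.0427) and the microsomal Mgst2 at 1.24-fold (adjusted p = 0.0262). In all 5 the groups were apart, although Gstm1 lost its call whichever of the 12 arrays was left out (adjusted p up to 0.145), while Mgst2 kept it without 5 of them and Gsta4 without 9. Gstm1 and Gsta1 belong to families of close relatives, and a probe set may take signal from more than 1 of them.

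Of 6 glucuronosyltransferases with a probe set of their own, 1 was called higher, beside 0.295% of all genes. The largest difference of the 6, at 0.66, belonged to a member that was not called. Ugt2a1 stood at 6.40, 6.52 and 6.85 at 641 mg/kg, against 5.85, 6.11 and 6.24 at 64.1 mg/kg, 1.41-fold higher (1.25 to 1.60; adjusted p = 0.00317) with no overlap. Ugt2b1, which conjugates steroids, stood at 12.74, 12.90 and 13.04 at 641 mg/kg, against 12.50, 12.56 and 12.71 at 64.1 mg/kg; the ranges were apart, but the test was not passed (1.26-fold; adjusted p = 0.168). Probe sets shared by all Ugt1a forms, whose transcripts have the same last exons, were 1.18-fold and 1.24-fold higher (adjusted p = 0.0343 for both), and kept their calls without 3 and 4 of the 12 arrays. None of 15 sulfotransferase genes was called, and their median was 0.00. The largest difference there, for Sult2a6, was 2.08-fold (1.38 to 3.11; adjusted p = 0.151), with arrays at 10.44, 10.75 and 11.16 at 641 mg/kg, against 8.98, 9.57 and 10.65 at 64.1 mg/kg. Of 6 carboxylesterases only Ces2c was called, and the other 5 differed by -0.06 to 0.08.

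**Figure D3:**
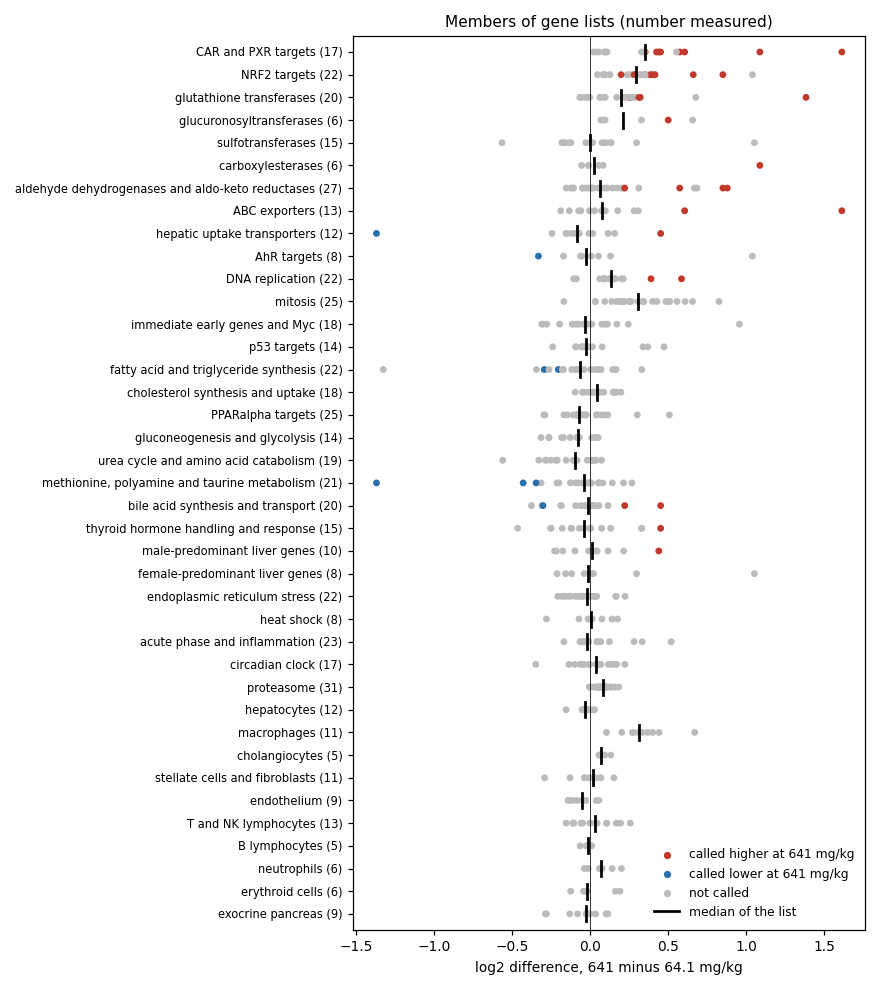
Each point is the log2 difference, 641 minus 64.1 mg/kg, of 1 gene in 1 of 39 lists (number of measured genes in brackets), coloured by its call, with the median of each list as a bar. The medians of the CAR and PXR targets (0.35), the macrophage markers (0.32), the mitosis genes (0.31) and the NRF2 targets (0.29) lie farthest to the right, while no member of the macrophage and mitosis lists was called.

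Slc6a6, the carrier that brings taurine into the cell, had the largest called fall. Its level was 7.24, 7.51 and 7.97 at 641 mg/kg, against 8.73, 8.87 and 9.21 at 64.1 mg/kg. Every array at 641 mg/kg lay below every array at 64.1 mg/kg, and the gene was 2.59-fold lower (1.92 to 3.49; adjusted p = 0.000619). The second Slc6a6 probe set gave 2.43-fold lower (1.82 to 3.25; adjusted p = 0.000882). Vehicle arrays of the first probe set had a median of 9.33. Taurine is used in the liver to conjugate bile acids, and it is made there from cysteine by Cdo1 and Csad. Neither of those passed the test (-0.13 and 0.14).

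Slc6a6 was 1 of 3 genes called lower among 21 of methionine, polyamine and taurine metabolism, with none higher and a median of -0.04, where 0.0844% of all genes were called lower. Gnmt, the glycine N-methyltransferase that uses up S-adenosylmethionine, stood at 10.58, 11.02 and 11.26 at 641 mg/kg, against 11.27, 11.46 and 11.50 at 64.1 mg/kg. It was 1.35-fold lower (1.18 to 1.54; adjusted p = 0.035). Sat1, which acetylates spermidine and spermine for their breakdown, stood at 9.39, 9.70 and 9.82 at 641 mg/kg, against 9.86, 9.95 and 10.18 at 64.1 mg/kg, 1.27-fold lower (1.14 to 1.42; adjusted p = 0.0427). In both genes the groups were apart by a narrow gap, and both kept their call without only 3 of the 12 arrays (adjusted p up to 0.13 for Gnmt and 0.177 for Sat1). With the 12 arrays alone, or without 64.1 mg/kg replicates 2, 3 and 4, Slc6a6 was the 1 member called, and so it was without any of 7 single arrays (641 mg/kg replicates 1, 2, 4 and 5 and 64.1 mg/kg replicates 2, 3 and 6).

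Cyp1a2, a P450 of hepatocytes that oxidises caffeine and arylamines, was the single called member among 8 targets of the aryl hydrocarbon receptor. It was called lower, as were 0.0844% of all genes. Its level was 12.13, 12.27 and 12.46 at 641 mg/kg, against 12.46, 12.64 and 12.78 at 64.1 mg/kg, so the groups met without overlap. It was 1.26-fold lower (1.17 to 1.36; adjusted p = 0.00162). Cyp1a1, the most inducible target of that receptor, differed by 0.13 and was not called. Gulo, which completes vitamin C synthesis in rats, stood at 11.22, 11.38 and 11.59 at 641 mg/kg, against 11.51, 11.74 and 11.79 at 64.1 mg/kg, with ranges that touched. It was 1.25-fold lower (1.15 to 1.35; adjusted p = 0.0044), while its second probe set differed by -0.33 (adjusted p = 0.0805). Both calls held without each array in turn but were lost with the 12 arrays alone (adjusted p = 0.0911 for Cyp1a2 and 0.124 for Gulo).

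Lipid genes were called lower in a few cases only. Of 22 genes of fatty acid and triglyceride synthesis 2 were called, both lower, beside 0.0844% of all genes called lower. The list median was -0.07. Elovl2 and Elovl5 lengthen polyunsaturated fatty acids. Elovl2 stood at 9.04, 9.11 and 9.23 at 641 mg/kg, against 9.26, 9.42 and 9.58 at 64.1 mg/kg, 1.23-fold lower (1.12 to 1.34; adjusted p = 0.0319). Elovl5 stood at 11.80, 11.90 and 11.96 at 641 mg/kg, against 12.06, 12.08 and 12.20 at 64.1 mg/kg, 1.15-fold lower (1.08 to 1.23; adjusted p = 0.0425). In both genes the groups were apart, but Elovl2 kept its call without 5 of the 12 arrays and Elovl5 without 1, and the mean of both Elovl5 probe sets was not called (adjusted p = 0.288). The list held no call with the 12 arrays alone or without 64.1 mg/kg replicates 2, 3 and 4, and 1 call or none without each single array.

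Scd, the desaturase of saturated fatty acids, had the largest downward difference of that list without passing the test. Its level was 7.45, 8.08 and 8.41 at 641 mg/kg, against 8.10, 9.57 and 9.83 at 64.1 mg/kg. The ranges overlapped through 1 low array at 64.1 mg/kg, and the difference of 2.51-fold lower (1.55 to 4.06) had an adjusted p of 0.113. It was called with the 30 dosed arrays alone (adjusted p = 0.02025) and without 64.1 mg/kg replicate 4 (adjusted p = 0.0317), where the difference was -1.57. Abhd2, a lipid hydrolase, was named by the size of its fall. It stood at 7.92, 8.13 and 8.40 at 641 mg/kg, against 8.44, 8.70 and 8.86 at 64.1 mg/kg, 1.46-fold lower (1.24 to 1.72; adjusted p = 0.0262), with the groups apart and the call kept without 5 of the 12 arrays. Plekhb1 was 1.37-fold lower (adjusted p = 0.0427), and Hmx1 and Mark4, both dim, were 1.26-fold and 1.25-fold lower (adjusted p = 0.0427 and 0.034); all 3 kept their call without only 2 or 3 of the 12 arrays. The other Mark4 probe sets differed by -0.13 (adjusted p = 0.672) and -0.07 (adjusted p = 0.837).

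Bile acid genes were split. Akr1d1, the 5-beta-reductase of bile acid synthesis, was 1.17-fold higher (adjusted p = 0.034), whereas Slc27a5, which activates bile acids for conjugation, was 1.23-fold lower (1.12 to 1.36; adjusted p = 0.0435). For Slc27a5 the arrays stood at 11.71, 11.79 and 11.97 at 641 mg/kg, against 11.74, 12.21 and 12.31 at 64.1 mg/kg, and each of these genes kept its call without only 3 of the 12 arrays. Cyp7a1, the rate-limiting enzyme of the pathway, stood at 10.003, 10.75 and 11.35 at 641 mg/kg, against 9.68, 10.71 and 12.03 at 64.1 mg/kg. Its ratio of 0.983 had an interval of 0.525 to 1.84, so a difference either way within that interval is not excluded (adjusted p = 0.991). Counting Slco1a4, 2 of 20 genes of the list were called higher and 1 lower, beside 0.295% and 0.0844% of all genes. The list median was -0.02. The second Akr1d1 probe set differed by 0.10 (adjusted p = 0.894), and neither higher call held without 64.1 mg/kg replicates 2, 3 and 4.

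Cell division genes held few calls. Of 22 DNA replication genes 20 had a difference above 0, and 2 were called higher and none lower. The list median was 0.13, and 0.295% of all genes were called higher. Mcm4 and Mcm6 encode subunits of the helicase that opens DNA for replication. Mcm4 stood at 6.78, 6.84 and 6.87 at 641 mg/kg, against 6.18, 6.46 and 6.60 at 64.1 mg/kg, 1.31-fold higher (1.17 to 1.47; adjusted p = 0.0184). Mcm6 stood at 5.49, 5.69 and 6.28 at 641 mg/kg, against 5.02, 5.22 and 5.38 at 64.1 mg/kg, 1.5-fold higher (1.25 to 1.80; adjusted p = 0.0343). The groups were apart in both genes, but Mcm6 lost its call without any of 8 arrays (adjusted p up to 0.141) and Mcm4 without 64.1 mg/kg replicate 3 or 6 (adjusted p up to 0.0812). Without 64.1 mg/kg replicates 2, 3 and 4 neither was called (adjusted p = 0.394 for Mcm4 and 0.363 for Mcm6), so the list then held no call.

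None of 25 mitosis genes was called, although 24 of them had a difference above 0, the median was 0.31 and the groups were apart in 5, a separation found upward in 0.633% and downward in 0.408% of all genes. Cdk1, the kinase that drives entry into mitosis, stood at 6.32, 6.45 and 6.98 at 641 mg/kg, against 5.70, 6.03 and 6.19 at 64.1 mg/kg (1.52-fold, 1.06 to 2.19; adjusted p = 0.46). Its partner Ccna2, cyclin A2, stood at 4.83, 5.04 and 5.54 at 641 mg/kg, against 4.11, 4.50 and 4.66 at 64.1 mg/kg (1.58-fold, 1.06 to 2.35; adjusted p = 0.477). With the 12 arrays alone, 2 mitosis genes were called, and Ccna2 was 1 of them (adjusted p = 0.0406). Mki67, a marker of dividing cells, differed by 1.77-fold (1.24 to 2.54; adjusted p = 0.255), with overlapping ranges. Probe sets of Anln and its relative Anlnl1 share 1 called probe set, 1.48-fold higher (adjusted p = 0.034), chosen after its value was seen. Zwint, a kinetochore protein chosen the same way, was 1.30-fold higher (adjusted p = 0.0394). These calls held without only 3 and 2 of the 12 arrays. Myc, a driver of cell growth, overlapped, at 7.79, 8.68 and 9.03 at 641 mg/kg, against 6.68, 7.72 and 8.81 at 64.1 mg/kg (1.94-fold, 1.26 to 2.99; adjusted p = 0.275).

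The 14 targets of p53 held no call by their representative probe sets, and their median was -0.03. Single further probe sets of 2 of them were called in opposite directions. Mdm2, which targets p53 for breakdown, was 1.38-fold higher by 1 of its 3 probe sets (adjusted p = 0.00309), and 1.29-fold by its brightest (1.14 to 1.46; adjusted p = 0.0569). Cdkn1a, the cell cycle inhibitor p21, was 1.64-fold lower by 1 of 2 probe sets (1.32 to 2.03; adjusted p = 0.0262), at 4.57, 4.94 and 5.48 at 641 mg/kg, against 5.04, 5.67 and 6.12 at 64.1 mg/kg, whereas its brighter probe set differed by -0.24 (adjusted p = 0.623). The probe sets of Cdkn1a therefore disagree in size, and 6 single arrays each ended the lower call when left out.

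Cxcl9 and Snx10 were called higher and are set here beside the macrophage markers described at the start, which Snx10 did not follow at 64.1 mg/kg. Cxcl9, a chemokine induced by interferon gamma, stood at 6.81, 7.30 and 7.86 at 641 mg/kg, against 5.91, 6.49 and 6.90 at 64.1 mg/kg, with overlap. It was 1.81-fold higher (1.39 to 2.35; adjusted p = 0.034), and its second probe set gave 1.79-fold (adjusted p = 0.038). The vehicle median was 6.69 and that at 6.41 mg/kg 7.08, both above the 64.1 mg/kg median. Macrophage markers were all above 0, at 0.10 for Mrc1 to 0.67 for Cd5l, with none of 11 called and no pair of groups apart. At 64.1 mg/kg, replicates 2, 3 and 4 had the lowest macrophage averages (7.81, 7.55 and 7.68) and also the 3 lowest Cxcl9 levels. Without them the difference of Cxcl9 was 0.54 in place of 0.85 (adjusted p = 0.645); a smaller difference follows from leaving out the lowest arrays and is given as a value only. Cxcl9 also lost its call without any of 7 single arrays (641 mg/kg replicates 1, 3, 4 and 5 and 64.1 mg/kg replicates 2, 3 and 4; adjusted p up to 0.114).

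Snx10, a sorting nexin of endosomes, stood at 5.95, 6.62 and 7.61 at 641 mg/kg, against 5.29, 5.64 and 6.06 at 64.1 mg/kg. The ranges overlapped at the lowest array of the higher dose, and the difference was 2.01-fold (1.46 to 2.78; adjusted p = 0.0425). The second Snx10 probe set differed by 0.57 without passing the test (adjusted p = 0.286). Without 64.1 mg/kg replicates 2, 3 and 4 the difference was 1.11 in place of 1.01, which is again given as a value only. The call was then lost (adjusted p = 0.174), as it was without 10 of the 12 single arrays (adjusted p up to 0.175).

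**Figure D4:**
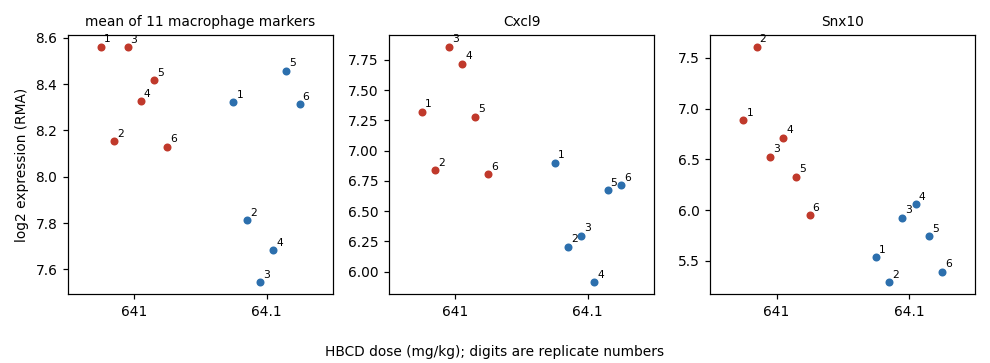
Average log2 level of 11 macrophage markers (left), and log2 level of Cxcl9 (middle) and Snx10 (right), on each array at 641 mg/kg (red) and 64.1 mg/kg (blue), with replicate numbers. Replicates 2, 3 and 4 at 64.1 mg/kg have the lowest macrophage averages and the lowest Cxcl9 levels, whereas their Snx10 levels run from 5.29 to 6.06 and include the highest of their group.

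The other called genes belonged to no list. Zdhhc2, a protein palmitoyltransferase, stood at 6.49, 6.91 and 7.10 at 641 mg/kg, against 5.96, 6.25 and 6.52 at 64.1 mg/kg, with ranges that touched, and was 1.53-fold higher (1.27 to 1.84; adjusted p = 0.0318). Eeig2 stood at 6.79, 7.08 and 7.45 at 641 mg/kg, against 6.30, 6.66 and 6.98 at 64.1 mg/kg, 1.41-fold higher (1.20 to 1.65; adjusted p = 0.0425). Zdhhc2 kept its call without 5 of the 12 arrays and Eeig2 without 3, and the second Eeig2 probe set was not called (0.41; adjusted p = 0.641). The next genes were named after their values were seen. Atp5if1, the inhibitor of mitochondrial ATP synthase, stood at 8.52, 8.72 and 8.95 at 641 mg/kg, against 8.20, 8.32 and 8.41 at 64.1 mg/kg. It was 1.34-fold higher (1.24 to 1.45; adjusted p = 7.62e-05) by 1 of its 3 probe sets, with the groups apart, and their mean was not called (adjusted p = 0.316). Slc35e3, a member of the nucleotide sugar carriers, was 1.33-fold higher (adjusted p = 0.00162) and was called by both its probe sets. Dip2a was 1.32-fold higher (adjusted p = 0.00294), Gpd1l1 1.28-fold (adjusted p = 0.00162), Htatip2 1.34-fold (adjusted p = 0.0169) and Acad9, an assembly factor of respiratory complex I, 1.23-fold (adjusted p = 0.0184). The second Gpd1l1 probe set differed by 0.11 (adjusted p = 0.769). Anxa7, Nap1l1 and Smtnl2 were 1.35-fold, 1.21-fold and 1.32-fold higher (adjusted p = 0.0195, 0.029 and 0.0427), each by 1 of its probe sets. Of these, Htatip2 lost its call without 641 mg/kg replicate 2 or 64.1 mg/kg replicate 6, and Acad9, Anxa7, Nap1l1 and Smtnl2 kept theirs without 7, 7, 6 and 3 of the 12 arrays.

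Other gene lists held few or no calls. Neither cholesterol synthesis (18 genes, median 0.05), PPARalpha targets (25 genes, -0.07), gluconeogenesis and glycolysis (14 genes, -0.08), urea cycle and amino acid catabolism (19 genes, -0.10), endoplasmic reticulum stress (22 genes, -0.02), heat shock (8 genes, 0.01), acute phase (23 genes, -0.02) nor circadian clock (17 genes, 0.04) had a called member. Immediate early genes (18 genes, -0.03) and female-predominant genes (8 genes, -0.01) had none either. Cpt1a, which admits fatty acids to mitochondria, stood at 9.56, 9.73 and 9.99 at 641 mg/kg, against 9.78, 10.06 and 10.28 at 64.1 mg/kg, and did not pass the test (1.23-fold lower, 1.07 to 1.41; adjusted p = 0.305). Of 31 proteasome subunits 29 had a difference above 0, with a median of 0.08 and no call. Thyroid hormone genes (15) and male-predominant genes (10) had 1 called member each, Slco1a4 and Cyp3a18, with medians of -0.04 and 0.01. Both were called higher, beside 0.295% of all genes. Markers of cholangiocytes, stellate cells, endothelium, lymphocytes, neutrophils, erythroid cells and exocrine pancreas had list medians between -0.05 and 0.07 and no called gene. Hepatocyte markers had a median of -0.03 with 2 of 12 above 0.

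The lower doses show where the 64.1 mg/kg level stood for these genes. Among probe sets called higher, the 64.1 mg/kg median lay above those of all 4 lower groups, vehicle included, in 37. It lay within them in 15 and below all 4 in 7. Among probe sets called lower, it lay below all 4 in 7, within them in 5 and above all 4 in 4. The same placing was not counted over all probe sets tested. The 64.1 mg/kg arrays enter both the call and this placing, so a low 64.1 mg/kg group favours a higher call and a place below. These counts are therefore a description only. The comparisons with vehicle share the 641 and 64.1 mg/kg arrays with the comparison described here, so the values are set side by side only. From vehicle upward through the 5 doses, the medians of Ces2c were 6.80, 7.08, 7.29, 7.32, 7.92 and 9.04, and those of Cyp3a23-3a1 were 12.44, 12.42, 12.50, 12.66, 13.25 and 13.67. Against vehicle, Ces2c was 4.41-fold higher at 641 mg/kg (adjusted p = 1.88e-13) and 2.07-fold higher at 64.1 mg/kg (adjusted p = 3.45e-05). Cyp3a23-3a1 was 2.45-fold higher at 641 mg/kg and 1.82-fold higher at 64.1 mg/kg, both called. In both genes the 64.1 mg/kg level was thus already above vehicle.

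Other genes did not pass the test at 64.1 mg/kg. Gsr medians along the same doses were 8.38, 8.44, 8.43, 8.56, 8.70 and 9.34, with 1.97-fold against vehicle at 641 mg/kg (adjusted p = 2.39e-09) and 1.24-fold at 64.1 mg/kg (adjusted p = 0.497). Pir medians were 7.12, 7.08, 7.10, 7.13, 7.28 and 7.94, with 1.84-fold at 641 mg/kg and 1.10-fold at 64.1 mg/kg (adjusted p = 0.944). Slc6a6 medians were 9.33, 9.09, 9.68, 9.15, 8.87 and 7.51, and its ratio to vehicle was 0.279 at 641 mg/kg (adjusted p = 2.91e-07) and 0.721 at 64.1 mg/kg (adjusted p = 0.792). Mcm6 medians were 5.23, 5.32, 5.32, 5.19, 5.22 and 5.69, so its 64.1 mg/kg median lay among those of the lower doses. Some called genes did not pass the test against vehicle at 641 mg/kg. There the ratios of Hmx1, Mark4 and the called Cdkn1a probe set were 0.891, 0.908 and 0.762 (adjusted p = 0.367, 0.45 and 0.254). Their ratios to vehicle at 64.1 mg/kg were 1.12, 1.13 and 1.25. Elovl2, Eeig2 and Smtnl2 did not pass it at 641 mg/kg either (adjusted p = 0.1085, 0.118 and 0.114). Nor did the second Cxcl9 probe set (1.52-fold against vehicle; adjusted p = 0.1104).

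**Figure D5:**
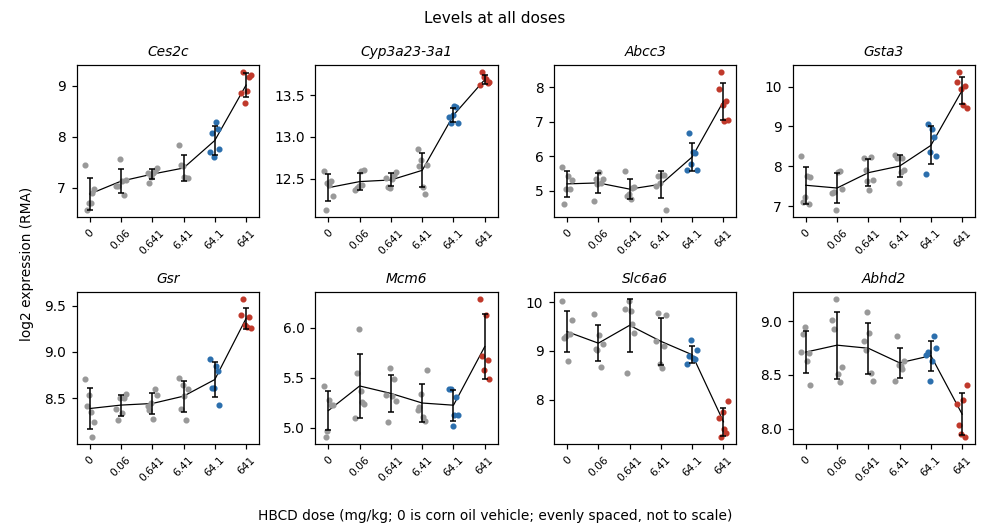
Log2 levels of 8 genes on each array at all doses in mg/kg, from vehicle (0) to 641, with the mean and SD of each group joined by lines and doses evenly spaced. Ces2c and Cyp3a23-3a1 are already above vehicle at 64.1 mg/kg, while Mcm6, Slc6a6 and Abhd2 part from the lower groups mainly at 641 mg/kg.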

How the data were processed

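Transcripts were measured on 36 rat liver arrays, of which 12 enter the comparison. The deposited file holds log2 expression per probe set. The submitters' processing notes name RMA and affy as what the authors used, with versions and settings not given in the sources used here. RMA corrects background, normalizes between arrays and summarises probes, and no further normalization was applied. Values on a log2 scale were inferred from their range (1.53 to 14.59; array medians 4.83 to 4.90). No detection calls were used, so dim probe sets were kept. The precision is limited by how many arrays there are. All value columns were mapped to samples.

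Of 31099 probe sets, 57 controls were left out. Of those tested 20826 had 1 gene symbol, 436 several and 9780 none. Symbols were updated through a RefSeq gene table of assembly GRCr8 (20758 by gene ID, 2 by accession, 66 kept as listed). The design text names R/maanova at a false discovery rate of 5%. In its place, limma 3.58.1 (R 4.3.3) was fitted here to all 36 arrays with the 6 groups as factor, so that all groups share 1 estimate of the spread. P-values are two-sided, adjusted by Benjamini-Hochberg over 31042 probe sets, and come from limma unless another test is named. Intervals of fold changes are 95% confidence intervals of that fit. Up to 15 genes per direction were named by size, where all 6 arrays at 641 mg/kg lay on 1 side of the 64.1 mg/kg mean, then at most 2 called genes of each list each way, or else its gene of smallest p, a fixed set of genes and all macrophage markers. The comparison, the gene lists and this rule were chosen with earlier results of these data known. The fit was first tested on simulated data. Alternatives covered the arrays in the fit, the replicate number as a block, scaling, a minimum mean of 6, variance models, array weights, a 1.5-fold minimum, the mean of a gene's probe sets and leaving out arrays. Replicate numbers were not shown to pair arrays: deviations of same-numbered arrays correlated between -0.07 and 0.14.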

Additional observations from a re-analysis of the deposited data

Results flagged for a closer look

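In 234 groups of 6 arrays examined, covering the genes named and all called probe sets at both doses, 16 held 1 array that stood apart from the other 5 by more than 0.625 of the group's range; chance gives about 1 in 20 groups. At 641 mg/kg, replicate 2 was high for Srxn1 (8.63), for 2 probe sets of Mdm2 (8.27 and 8.16), for Htatip2 (8.89) and for an unnamed probe set (7.85). Also at 641 mg/kg, replicate 6 was low for Gclc (10.1) and Psmd14 (9.57), replicate 3 was low for Dip2a (6.24), and replicate 4 was high for Nqo1 (10). At 64.1 mg/kg, replicate 6 was low for Dip2a (5.92), Mdm2 (7.19) and Htatip2 (7.65) and high for Elovl5 (12.2), while replicate 3 was low for Gsta4 (10.8), Gstm1 (12.8) and Nqo1 (7.11). By array the counts were 5 for 641 mg/kg replicate 2, 2 for its replicate 6, 4 for 64.1 mg/kg replicate 6 and 3 for its replicate 3.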

How the results depend on the processing

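Counts of higher and lower probe sets were 59 and 16 with all arrays, 30 and 5 with the 12 arrays alone, 20 and 5 without 64.1 mg/kg replicates 2, 3 and 4, and 17 and 3 at a 1.5-fold minimum. Leaving out single arrays gave 27 to 71 higher and 5 to 24 lower. With the replicate number as a block there were 54 and 10, of which 53 and 10 were shared; replicate numbers were not shown to pair arrays, only replicate 3 correlated best with its own number, and Gnmt, Mcm6, Eeig2 and Snx10 were among the calls lost under it. The other fits (30 dosed arrays, median centring, repeated quantile normalization, a minimum mean of 6, a variance trend, array weights) gave 52 to 76 higher and 11 to 23 lower. Sign changes were confined to genes not called. Cyp7a1 ran from -0.25 to 0.22 over the single arrays left out and reached 0.74 without 64.1 mg/kg replicates 2, 3 and 4. That setting also turned Aif1 (-0.0943), C1qa (-0.0792), C1qb (-0.0252), C1qc (-0.0499), Cd68 (-0.0363) and Cd163 (-0.0171). Those markers chose the arrays left out, so a fall in their differences follows from that choice. Jchain ran from -0.14 to 0.00735 over the single arrays left out. The cause of the changes in Cyp7a1 and Jchain was not tested. With 6 arrays a group, borderline calls are the ones most open to a single array, and dim probe sets carry less signal over background.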

Other observations

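The 6 largest differences that did not pass the test were chosen after their values were seen, and 1 of them, Scd, is described above. A probe set with no gene symbol had 11.28, 11.64 and 12.48 at 641 mg/kg, against 3.79, 10.52 and 11.02 at 64.1 mg/kg, a 5.02-fold difference with an interval of 1.24 to 20.4 (adjusted p = 0.467). Another without a symbol had 8.43, 8.86 and 9.44 at 641 mg/kg, against 4.28, 6.98 and 9.72 at 64.1 mg/kg, a 3.83-fold difference with an interval of 1.18 to 12.4 (adjusted p = 0.472). Clca2, a chloride channel accessory protein, ran from 4.40 to 8.13 at 641 mg/kg and from 7.29 to 8.47 at 64.1 mg/kg (2.85-fold lower; adjusted p = 0.335). RT1-Ba, a class II histocompatibility gene, ran from 8.04 to 9.98 at 641 mg/kg and from 4.62 to 9.33 at 64.1 mg/kg (2.25-fold; adjusted p = 0.645). Slfn4, a schlafen gene, ran from 6.85 to 7.35 at 641 mg/kg and from 4.57 to 7.23 at 64.1 mg/kg (2.28-fold; adjusted p = 0.265).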
